A study of Mus musculus with 8 samples.

Results

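The expression of the genes that encode the subunits of oxidative phosphorylation was examined in 4 conditions of the in vitro testis model, with 2 libraries in each. Members were the protein-coding genes whose symbols run Ndufa, b, c, s or v with a number, Sdha to Sdhd, Uqcr, Cox4 to Cox8 or Atp5, with the Nd, Co, Cytb and Atp genes of the mitochondrial genome. In all, 97 of the 98 gene IDs found by this rule in the GENCODE M21 annotation were among the 46078 gene IDs counted, and 12 further matches that are not protein coding were left out. Of these 97, 84 lie in the nucleus and 13 in the mitochondrial genome. The nuclear members comprise 37 genes of complex I, 4 of complex II, 8 of complex III, 18 of complex IV and 17 of complex V. Complexes were assigned by symbol, so that Ndufa4, since assigned to complex IV, and its paralogue Ndufa4l2 are counted under complex I. The mitochondrial members comprise 7 genes of complex I, 1 of complex III, 3 of complex IV and 2 of complex V.

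Complexes I and II pass electrons from NADH and succinate to ubiquinone, complex III hands them to cytochrome c, and complex IV reduces oxygen. The proton gradient built by complexes I, III and IV drives ATP synthase, complex V. Because a few catalytic subunits are made inside the organelle and all others are imported, the assembly of each of these complexes except complex II draws on both genomes, and naive embryonic stem cells (ESCs) are known to use both glycolysis and respiration.

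All cells were male and from C57BL/6 mice. The text of the study gives this strain for the tcESC line and names none for the Prdm1-gfp line. The tcESCs carry tesco-cfp, a CFP reporter driven by the testis enhancer of Sox9. The tc;Sf1ESCs are 1 clone of that line, selected with G418 after electroporation of a plasmid that expresses Sf1 (Nr5a1) constitutively. The SCLCs (Sertoli cell-like cells) were CFP-positive cells sorted at day 12 of testicular somatic cell-like culture of the same clone, and so carry both the reporter and the transgene. The todPGCLCs (testicular organoid-derived primordial germ cell-like cells) were sorted at day 6 from organoids in which epiblast-like cells from a Prdm1-gfp ESC line were cultured with testicular somatic cell-like cells of the tc;Sf1ESC clone. The sort is given in one place of the study as GFP with CD49f and in another as GFP with SSEA1, and which of them these libraries rest on was not settled here. By the study's methods, ESCs were kept with LIF, PD0325901 and CHIR99021. Somatic cell-like cultures received CHIR99021 with TTNPB, then CHIR99021, BMP7 and FGF9, and organoids CHIR99021 alone. The ESCs are not described as sorted. Between ESCs and the sorted cells, medium and sorting cannot be told apart from cell type. The parental Prdm1-gfp ESCs were not analysed here, so that a difference between todPGCLCs and tcESCs cannot be told apart from a difference between the ESC lines. The study states that its experiments were replicated biologically, and does not say so of these libraries in particular. Nothing in the labels says whether the 2 libraries of a group came from separate cultures, and the p-values then measure only the spread between these libraries, which may be technical.

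The libraries held 25411033 to 30680191 counts on genes. Nr5a1 had 1 and 0 counts in tcESCs, 52 and 30 in tc;Sf1ESCs, 341 and 535 in SCLCs, and 6 and 5 in todPGCLCs. The 2 SCLC libraries differed most from each other (chi-square over its degrees of freedom 30.7, and 1.44 to 9.86 in the other pairs). The 10 Sertoli cell markers summed to 492 to 496 CPM (counts scaled to a common library total) in SCLCs, against at most 18.7 in ESCs, of which Gata4 made up a mean of 441. Sox9 (6.37), Nr5a1, Dmrt1, Wt1, Cldn11 and Ptgds also had higher means in SCLCs than in either ESC line, whereas Amh stood at 0.591 (0.588 in tcESCs), Dhh at 0.116 (0.212 in tcESCs) and Fshr had 0 counts. Markers of visceral and primitive endoderm (8 genes, among them Ttr, Afp and Apoa1) summed to 835 to 1218 CPM in SCLCs and to at most 6.10 in ESCs, and the 4 interstitial and stromal markers to 1095 to 1137 against at most 7.58. The 9 germ cell markers summed to 967 to 1011 CPM in todPGCLCs and 622 to 635 in tcESCs. Prdm1, whose reporter was used for sorting, Dppa3, Tfap2c, Dnd1, Ddx4 and Nanos3 had higher means in todPGCLCs than in tcESCs, and Dazl, Itga6 and Prdm14 lower ones. In todPGCLCs the 7 ESC markers still summed to 2657 to 2747 CPM, against 5096 to 5131 in tcESCs, and in SCLCs to 616.6 to 855.7. The germ cell markers summed to 367.3 to 369.1 CPM in tc;Sf1ESCs and 284.2 to 398.2 in SCLCs. The Sertoli cell markers summed to 113.5 to 138.4 CPM in todPGCLCs, where Dmrt1 (105.4) and Wt1 (10.97) had higher means than in SCLCs (25.48 and 1.59). The part of these other cell types in the differences below was not tested, and in bulk libraries fewer cells of a type cannot be told apart from less RNA per cell.

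Oxidative phosphorylation mRNAs were most abundant in tc;Sf1ESCs and least abundant in SCLCs. Nuclear members took 1.01% ± 0.0464 (SD, n = 2) of all counts in tcESCs, 1.13% ± 0.0102 in tc;Sf1ESCs, 0.721% ± 0.000384 in SCLCs and 0.998% ± 0.00417 in todPGCLCs. SCLCs lay below all other libraries, tc;Sf1ESCs above them, and the ranges of tcESCs and todPGCLCs overlapped. An exact permutation test of 2 against 2 libraries cannot go below p = 0.33, so these shares carry no test. The 13 mitochondrial members took more, at 2.45% ± 0.0877 in tcESCs, 2.85% ± 0.00475 in tc;Sf1ESCs, 1.87% ± 0.281 in SCLCs and 2.08% ± 0.136 in todPGCLCs. Here the SCLC and todPGCLC libraries overlapped each other and lay below the ESC libraries.

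Complex V held more mRNA than any other complex among the nuclear genes, with summed levels (CPM after normalisation with TMM factors) of 4951 ± 175 in tcESCs, 5572 ± 65.7 in tc;Sf1ESCs, 3369 ± 19.4 in SCLCs and 4877 ± 52.6 in todPGCLCs. The nuclear genes of complex I summed to 2204 ± 109, 2298 ± 29.97, 1710.2 ± 13.9 and 2031 ± 17.9 CPM in the same order. Complexes I, III and V were lowest in SCLCs, where both libraries lay below those of the 3 other conditions. Complex IV differed from this order. Its 18 nuclear genes summed to 1259 ± 83.9, 1650 ± 36.1, 1088 ± 0.655 and 1012 ± 2.53 CPM, lowest in todPGCLCs and highest in tc;Sf1ESCs. Gene by gene, SCLCs had the lowest mean of the 4 conditions for 50 of the 81 nuclear members that could be tested, and tc;Sf1ESCs the highest for 46.

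**Figure D1:**
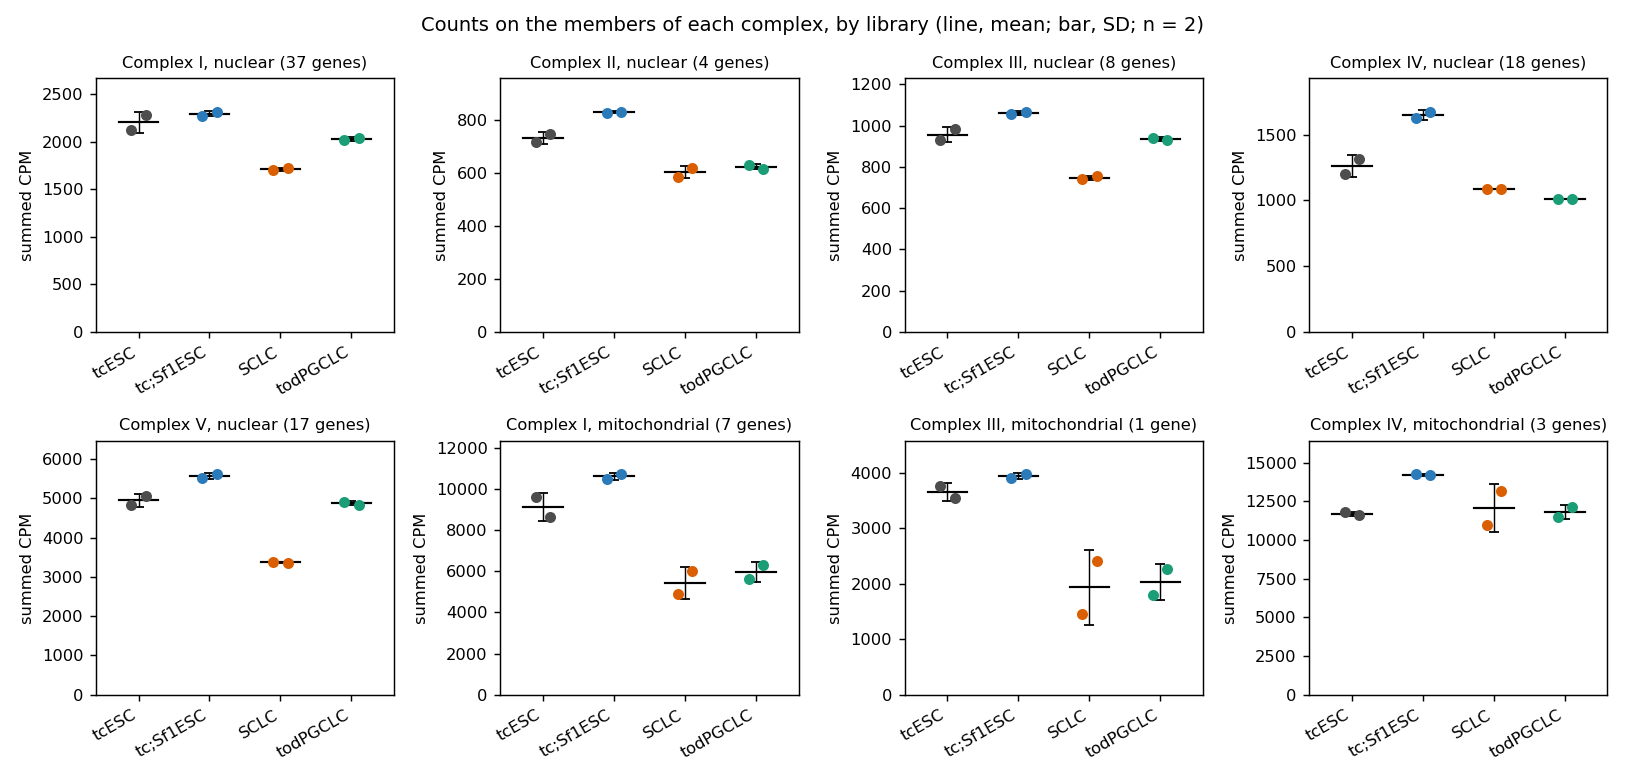
Summed level (CPM, TMM-normalised) of the members of each complex in each library, nuclear and mitochondrially coded genes apart; points are libraries, lines means and bars the SD of 2 libraries. The SCLC points lie lowest for nuclear complexes I, III and V, and mitochondrially coded complex IV has means of 11689 CPM in tcESCs, 14218 in tc;Sf1ESCs, 12066 in SCLCs and 11816 in todPGCLCs. The 2 mitochondrial genes of complex V had at most 1 count in any library and are not drawn.

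Tests were run on the 16707 genes whose count averaged more than 10 per library, which included 88 members, 81 nuclear and 7 mitochondrial. The 9 members under this limit were the mitochondrial genes mt-Co2, mt-Co3, mt-Atp6, mt-Atp8, mt-Nd3 and mt-Nd4l, which are taken up with the other mitochondrial genes, and Cox6a2, Cox8b and Cox8c. Cox6a2 and Cox8b are the isoforms of heart and skeletal muscle, with at most 3 and 8 counts in any library, and Cox8c is a testis isoform, with 10 and 3 counts in todPGCLCs and at most 2 elsewhere. The 5 comparisons share libraries and are not independent of each other. Fold changes are given as log2 values with their standard errors (SE), and adjusted p-values from the quasi-likelihood test of edgeR, with Benjamini-Hochberg adjustment across the genes tested. For 24 members, 17 of them nuclear, more than 20% of their 50-base stretches, the length of a read, also occur in another annotated gene, up to 84.8% for Atp5l among the nuclear members and 100% for mt-Co2 among the mitochondrial ones, and these levels are uncertain. A member is said to have risen or fallen with an adjusted p under 0.05, and changes of more than 2-fold are counted apart.

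The tc;Sf1ESCs differed from their parental tcESCs by small changes, more of them increases than decreases. With an adjusted p under 0.05, 26 of 88 members rose and 6 fell, and 1 of them, Cox7b2, changed by more than 2-fold. Fitted on the 4 libraries of these groups alone, 52 rose and 9 fell, 2 of them by more than 2-fold. Over all genes tested, 16.9% rose, 16.3% fell and 12.0% were called above 2-fold. The median log2 fold change of the nuclear members was 0.15, beside 0 over all genes, and 0.089 without the first tcESC library. In complex IV 8 of 15 genes rose, in complex I 7 of 37 rose and 4 fell, and in complex V 4 of 17 rose and 2 fell. Complex II contributed 2 increases, Sdha and Sdhc, and complex III 3, Uqcrc2, Uqcrfs1 (the Rieske iron-sulfur protein) and Uqcrh. The number of calls in this comparison changed with the libraries fitted, and the cause was not tested. Without a tcESC library 10 members were called, and without a tc;Sf1ESC library 7. Without 1 SCLC library it was 47. The calls kept whichever of the 8 libraries was left out were Atp5e, Atp5j, Cox4i1, Cox6b1, Cox7b2 and Ndufb7.

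Cox7b2, the testis-enriched paralogue of the complex IV subunit gene Cox7b, stood at 0.552 and 0.357 CPM in tcESCs, 7.89 and 9.15 in tc;Sf1ESCs, 0.784 and 0.431 in SCLCs, and 2.14 and 2.25 in todPGCLCs. The tc;Sf1ESC libraries lay above all others, and the todPGCLC libraries above those of tcESCs and SCLCs (log2 fold change 4.24, SE 0.31, adjusted p = 4.96e-05 in tc;Sf1ESCs against tcESCs). In SCLCs, which descend from the same clone, the libraries overlapped those of tcESCs (log2 fold change 0.42, SE 0.40, adjusted p = 0.359 against tcESCs, and -3.81, adjusted p = 5.16e-06 against tc;Sf1ESCs). Cox4i1, the main isoform of the subunit that binds ATP, had 172 and 202 CPM in tcESCs, 339 and 342 in tc;Sf1ESCs, 263 and 274 in SCLCs, and 188 and 204 in todPGCLCs. It rose in tc;Sf1ESCs (log2 fold change 0.86, SE 0.086, adjusted p = 0.000183) and the libraries of these groups did not overlap. Cox6b1, a subunit at the cytochrome c side of complex IV, had 117 and 132 CPM in tcESCs and 178 and 185 in tc;Sf1ESCs (log2 fold change 0.54, SE 0.094, adjusted p = 0.00268). Cox7a1, an isoform known from muscle, rose from a mean of 5.19 to 8.77 CPM (0.76, adjusted p = 0.0154), but was not called when any 1 of the 4 libraries compared was left out.

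On chromosomes 3, 6, 8 and 16 the median of the other genes lay away from 0 in the tc;Sf1ESC clone, and the members there had the sign of that median. On chromosome 2 (-1.26 to 0.49) and chromosome 17 (-0.26 to 0.19), among others, members lay on both sides of 0. On chromosomes 5, 9, 10, 13, 15, 18 and 19 every member tested was above 0, although the medians of the other genes there lay between -0.024 and 0.028. On chromosome 8 the median log2 fold change of all other genes tested was 0.48, and Cox4i1 (0.86), Ndufb7 (0.64, an accessory subunit of complex I) and Ndufa13 (0.38) all rose. On chromosome 6 that median was -0.32, and Ndufa4 (-0.31), Ndufa5 (-0.33) and Ndufa9 (-0.32) fell, whereas Ndufb2 stood at -0.032. On chromosome 16 it was -0.46, and Atp5j (-0.38, coupling factor 6), Atp5o (-0.34, which joins the F1 head to the stalk) and Ndufb4 (-0.40, adjusted p = 0.0759) were all negative. On chromosome 3 it was 0.19, and Atp5f1, Ndufb5 and Ndufc1 rose by 0.25 to 0.46. The only other member to fall was Ndufb10 on chromosome 17 (-0.26), where the other genes had a median of -0.013. With the median of its chromosome taken from each member, the median of the nuclear members remained 0.15. The part of these chromosome-wide differences in the members' own was not tested.

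**Figure D2:**
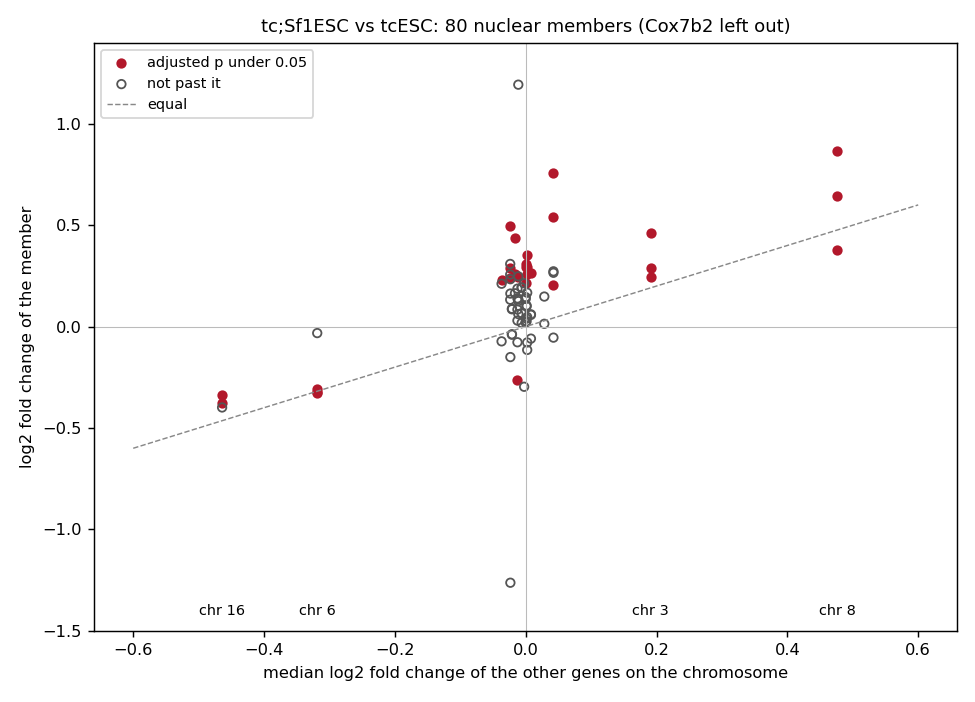
Log2 fold change of 80 nuclear members between tc;Sf1ESCs and tcESCs against the median log2 fold change of the other genes on the same chromosome; each point is a gene, filled with an adjusted p under 0.05, and the dashed line marks equality. Cox7b2, at 4.24, is left out. The members of chromosomes 16 and 6 lie below 0 and those of chromosomes 3 and 8 above it. Those of chromosomes 5, 9, 10, 13, 15, 18 and 19, where that median is near 0, also lie above 0.

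SCLCs had lower levels of most subunit genes than either ESC line, with decreases in every complex. Against tc;Sf1ESCs, the clone from which they were made, 67 of 88 members fell and 7 rose, where 35.3% of all genes fell and 37.6% rose. Of these, 11 fell and 3 rose by more than 2-fold, beside 42.2% of all genes in either direction, and without the first SCLC library 10 fell and 1 rose by that much. The median of the nuclear members was -0.56, beside 0.019 over all genes. Against tcESCs 57 fell and 11 rose, with 34.7% and 38.1% of all genes, and 7 fell and 3 rose by more than 2-fold, with 42.6% of all genes. There the median of the nuclear members was -0.37, beside 0.049 over all genes. The share of members that fell was above that of all genes in both comparisons, and the share that changed by more than 2-fold was below it. The chromosome-wide differences of the clone were also seen in SCLCs against tcESCs, with medians of the other genes of 0.58 on chromosome 8, -0.48 on chromosome 16 and -0.30 on chromosome 6. With these medians taken from the members, the median was -0.47 against tcESCs and -0.60 against tc;Sf1ESCs.

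Leaving out each library in turn kept 64 of the 74 calls against tc;Sf1ESCs. The calls lost were those of Atp5e, Cox5b, Cox7a2l, Ndufa13, Ndufa4l2, Ndufa7, Ndufa8, Ndufb8 and mt-Co1, with adjusted p-values of 0.0529 to 0.234 where they were lost, and that of Cox4i2, which was under the limit on counts without the first SCLC library. Against tcESCs 57 of 68 were kept, and those lost, among them Atp5e, Cox4i2, Cox5b, Cox6a1, Cox8a and Ndufs3, had adjusted p-values of 0.0531 to 0.323 where they were lost.

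In complex I, 24 of 37 nuclear genes fell in SCLCs against tc;Sf1ESCs and 4 rose, and 22 fell and 5 rose against tcESCs. Of the 7 nuclear genes for the core subunits, which carry electrons from NADH to ubiquinone, 5 fell against each ESC line, among them Ndufs1, which holds iron-sulfur clusters, and Ndufv1, which holds the flavin. Ndufs8 had 44.6 and 49.3 CPM in tcESCs, 52.5 and 54.9 in tc;Sf1ESCs, 28.7 and 29.5 in SCLCs, and 52.3 and 50.6 in todPGCLCs (log2 fold change -0.88, SE 0.081, adjusted p = 1.24e-05 against tc;Sf1ESCs), so that the SCLC libraries lay below all others. Ndufs7, a core subunit next to the ubiquinone site, did not pass the test (0.00082 and 0.13 against tc;Sf1ESCs and tcESCs). Ndufs3 was higher than in tcESCs by 0.25 (adjusted p = 0.0194), although 39.7% of its 50-base stretches occur in another annotated gene, which makes its counts uncertain.

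The accessory subunits of complex I went both ways, with 19 of 30 lower and 4 higher against tc;Sf1ESCs, and 17 lower and 4 higher against tcESCs. In both comparisons Ndufa4, counted here by its symbol, is among those lower and Ndufa4l2 among those higher. Ndufs6, a zinc-binding subunit, stood at 52.7 and 58.4 CPM in tcESCs, 66.8 and 69.3 in tc;Sf1ESCs, 34.0 and 30.7 in SCLCs, and 47.9 and 50.9 in todPGCLCs (log2 fold change -1.07, SE 0.088, adjusted p = 6.12e-06 against tc;Sf1ESCs). Ndufb6 fell by 1.07 and 1.13 on the log2 scale against tc;Sf1ESCs and tcESCs, with 31.6% of its 50-base stretches shared with other genes. Both genes were lower in each SCLC library than in every other library. Ndufb4 had 10.3 and 12.0 CPM in tcESCs, 9.06 and 7.87 in tc;Sf1ESCs, 3.65 and 3.81 in SCLCs, and 7.70 and 8.12 in todPGCLCs (log2 fold change -1.58, SE 0.16, adjusted p = 2.5e-05 against tcESCs, or -1.098 less the median of chromosome 16). It shares 37.0% of its 50-base stretches with other annotated genes, so its level is uncertain. Ndufa6 went against this direction, with 34.3 and 37.8 CPM in tcESCs, 43.5 and 45.9 in tc;Sf1ESCs, 72.1 and 56.3 in SCLCs, and 50.8 and 46.8 in todPGCLCs. It was higher in SCLCs than in tcESCs (log2 fold change 0.83, SE 0.12, adjusted p = 0.000238) and than in tc;Sf1ESCs (0.52, adjusted p = 0.00373), with no overlap. Ndufa13, which is also known as GRIM-19, rose by 0.55 against tcESCs (adjusted p = 9.61e-05) and by 0.17 against tc;Sf1ESCs (adjusted p = 0.0494), the latter lost in 7 of the 8 fits with 1 library left out, and 28.5% of its 50-base stretches are shared. Less the median of chromosome 8 it stood at -0.031 against tcESCs. Ndufa8, another accessory subunit, had 37.0 and 41.6 CPM in tcESCs, 35.3 and 35.5 in tc;Sf1ESCs, 43.6 and 45.3 in SCLCs, and 46.5 and 44.6 in todPGCLCs, and rose against tc;Sf1ESCs (0.33, adjusted p = 0.00644). The decreases of complex I ranged from -0.30 to -1.18, and Ndufa2, Ndufa3, Ndufb11, Ndufb2, Ndufb3, Ndufc2, Ndufs3, Ndufs7 and Ndufv3, which did not pass the test, lay between 0.00082 and 0.21 against tc;Sf1ESCs.

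In complex II, which links the tricarboxylic acid cycle to the chain, Sdhb, the iron-sulfur subunit, had 88.1 and 99.2 CPM in tcESCs, 96.3 and 98.7 in tc;Sf1ESCs, 53.3 and 52.6 in SCLCs, and 86.0 and 80.8 in todPGCLCs. The SCLC libraries were the lowest and the todPGCLC libraries came next (log2 fold change -0.88, SE 0.077, adjusted p = 9.37e-06 against tc;Sf1ESCs and -0.82, adjusted p = 1.41e-05 against tcESCs). Sdha, the flavoprotein with the catalytic site, fell by 0.62 against tc;Sf1ESCs (adjusted p = 4.73e-05) and by 0.40 against tcESCs (adjusted p = 0.000735). Sdhc and Sdhd are the membrane anchors. Sdhc fell against tc;Sf1ESCs (-0.33, adjusted p = 0.00217) and stood at -0.074 against tcESCs (adjusted p = 0.362), and Sdhd stood at -0.057 and 0.047 (adjusted p = 0.458 and 0.536).

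In complex III, 7 of 8 nuclear genes fell against tc;Sf1ESCs and 5 against tcESCs. The small subunit gene Uqcr10 had 73.8 and 77.8 CPM in tcESCs, 78.5 and 82.3 in tc;Sf1ESCs, 37.8 and 41.5 in SCLCs, and 77.4 and 78.4 in todPGCLCs (log2 fold change -1.02, SE 0.075, adjusted p = 3.07e-06 against tc;Sf1ESCs, -0.93, adjusted p = 5.16e-06 against tcESCs). Its 2 SCLC libraries were the lowest and the other 6 lay between 73.8 and 82.3 CPM. Of the core proteins, Uqcrc1 fell by 0.75 against tc;Sf1ESCs (adjusted p = 6.24e-06) and Uqcrc2 stood at -0.15 (adjusted p = 0.06). The Rieske protein gene Uqcrfs1 fell against tc;Sf1ESCs (-0.27, adjusted p = 0.00547) and stood at 0.036 against tcESCs (adjusted p = 0.646). The decreases of complex III ranged from -0.27 to -1.02 against tc;Sf1ESCs.

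In complex IV, 13 of the 15 genes tested fell and 2 rose against tc;Sf1ESCs. Cox5a, a subunit on the matrix side of the complex, had 83.6 and 90.1 CPM in tcESCs, 84.2 and 92.7 in tc;Sf1ESCs, 29.6 and 31.9 in SCLCs, and 62.6 and 57.3 in todPGCLCs. The SCLC libraries held the lowest levels and the todPGCLC libraries came next, with no overlap (log2 fold change -1.52, SE 0.088, adjusted p = 7.36e-07 against tc;Sf1ESCs, -1.498, adjusted p = 8.14e-07 against tcESCs). Its level is uncertain, since 32.05% of its 50-base stretches occur in other annotated genes. Cox6c, which has less such sharing, fell by 0.95 (adjusted p = 1.86e-05) and 0.66 (adjusted p = 0.000192) against tc;Sf1ESCs and tcESCs. Cox7a2l, which helps complexes III and IV to join into supercomplexes, was higher in SCLCs, with 81.9 and 90.0 CPM in tcESCs, 95.8 and 93.5 in tc;Sf1ESCs, 127 and 111 in SCLCs, and 72.4 and 70.6 in todPGCLCs (0.47, adjusted p = 0.0008 against tcESCs). Cox4i1 lay between both ESC lines, at -0.34 against tc;Sf1ESCs (adjusted p = 0.00579) and 0.52 against tcESCs (adjusted p = 0.000524), or -0.055 less the median of chromosome 8. The decreases of complex IV ranged from -0.34 to -3.81 against tc;Sf1ESCs.

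In complex V, 13 of 17 genes fell and 1 rose against tc;Sf1ESCs, and 12 fell and 3 rose against tcESCs. The genes of the 3 large subunits of the catalytic F1 head fell. Atp5b, the catalytic beta subunit and the most abundant nuclear member, had 1877 and 1983 CPM in tcESCs, 2265 and 2302 in tc;Sf1ESCs, 1446 and 1283 in SCLCs, and 2113 and 2075 in todPGCLCs (log2 fold change -0.74, SE 0.075, adjusted p = 2.32e-05 against tc;Sf1ESCs). Each SCLC library held fewer than any other library. Atp5a1, the alpha subunit, stood at -0.83 (adjusted p = 5.08e-06) and -0.68 (adjusted p = 1.7e-05), and Atp5c1, the gamma subunit of the rotor, at -0.48 (adjusted p = 0.000315) and -0.32 (adjusted p = 0.00368) against tc;Sf1ESCs and tcESCs. Atp5d, the delta subunit, did not pass the test (-0.16 and -0.026), and Atp5e, the epsilon subunit, fell against tc;Sf1ESCs (-0.27, adjusted p = 0.00831) but was above tcESCs (0.23, adjusted p = 0.02). In the stalk, Atp5o had 168 and 176 CPM in tcESCs, 137 and 136 in tc;Sf1ESCs, 66.5 and 77.4 in SCLCs, and 148 and 141 in todPGCLCs (-1.26, adjusted p = 1.39e-06 against tcESCs, or -0.78 less the median of chromosome 16), and 47.6% of its 50-base stretches occur in other annotated genes. Atp5s, a factor related to the coupling of the synthase rather than a core subunit, rose, with 5.24 and 5.75 CPM in tcESCs, 4.24 and 4.72 in tc;Sf1ESCs, 13.4 and 12.3 in SCLCs, and 13.6 and 12.4 in todPGCLCs (log2 fold change 1.22, SE 0.15, adjusted p = 6.75e-05 against tcESCs, and 1.52, adjusted p = 1.91e-05 against tc;Sf1ESCs). Its SCLC and todPGCLC libraries lay above all ESC libraries. Atp5g1, a gene for the membrane ring, fell by 1.41 (adjusted p = 1.07e-05) against tc;Sf1ESCs and by 1.45 (adjusted p = 8.96e-06) against tcESCs. The decreases of complex V ranged from -0.27 to -1.41, and Atp5d, Atp5g2 and Atp5l, which did not pass the test, lay between -0.16 and -0.012 against tc;Sf1ESCs.

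**Figure D3:**
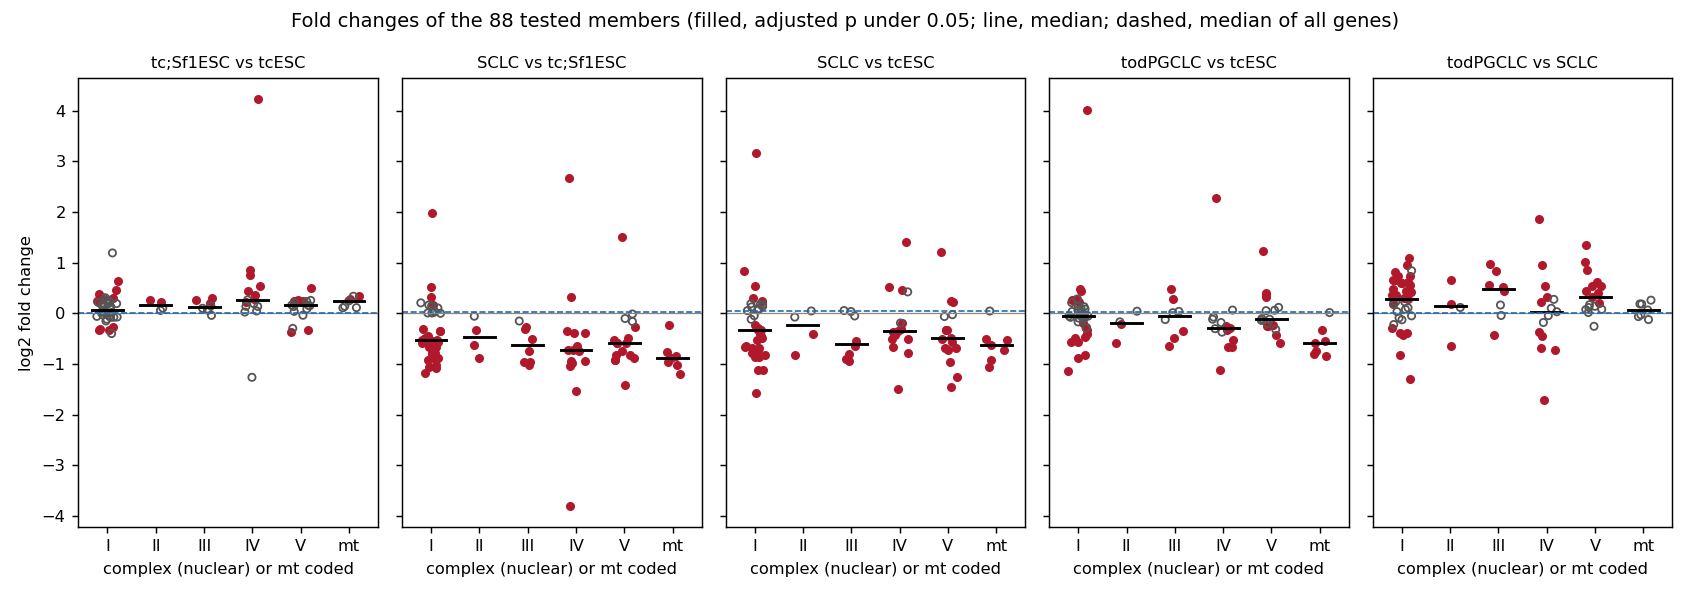
Log2 fold changes of the 88 tested members in the 5 comparisons, nuclear members by complex and mitochondrially coded members (mt) apart; points are genes, filled with an adjusted p under 0.05, short lines the median of each complex and the dashed line the median of all genes tested. In SCLCs against tc;Sf1ESCs all medians lie below 0, from -0.48 for complex II to -0.87 for the mitochondrial members, and in todPGCLCs against SCLCs the median is 0.49 for complex III and 0.032 for complex IV.

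In todPGCLCs more members fell than rose against tcESCs. Against tcESCs 13 of 88 members rose and 35 fell, where 32.8% of all genes rose and 29.2% fell, and 3 rose and 2 fell by more than 2-fold, with 29.4% of all genes. The median of the nuclear members was -0.12, beside 0.034 over all genes, -0.20 without the first tcESC library and -0.043 with scaling to library totals alone. Complex IV had 1 increase and 8 decreases among 15 genes, complex I 6 and 11 among 37, complex V 4 and 5 among 17, and complex III 2 and 3 among 8. The mitochondrial members fell in 6 of 7. In complex II Sdhd (-0.59, adjusted p = 8.54e-05) and Sdha (-0.21, adjusted p = 0.0263) fell, although Sdha was not called when any 1 of the 4 libraries compared was left out. Without the first todPGCLC library 31 members were called in place of 48, with 22 decreases, without the first tcESC library 6 members rose, without either tc;Sf1ESC library 8 rose, and 27 calls were kept whichever library was left out.

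Cox6b1 was the complex IV gene that fell most in todPGCLCs, to 52.8 and 61.6 CPM in todPGCLCs from 117 and 132 in tcESCs (log2 fold change -1.13, SE 0.096, adjusted p = 1.92e-05). Its levels ordered the conditions without overlap, tc;Sf1ESCs first, then tcESCs, SCLCs and todPGCLCs. Ndufb2 was low in all conditions, with 3.12 and 2.89 CPM in tcESCs, 2.68 and 3.18 in tc;Sf1ESCs, 3.25 and 3.52 in SCLCs, and 1.42 and 1.32 in todPGCLCs (log2 fold change -1.13, SE 0.22, adjusted p = 0.00197). Only the todPGCLC libraries stood apart, below the others. The exons of Ndufb2 overlap those of the annotated gene Gm42420 by 145 bases. Ndufa4, named for complex I and since assigned to complex IV, had 189 and 201 CPM in tcESCs, 155 and 161 in tc;Sf1ESCs, 85.9 and 95.1 in SCLCs, and 111 and 109 in todPGCLCs (log2 fold change -0.83, SE 0.070, adjusted p = 1.87e-05). Ndufa5 fell from 28.6 ± 1.19 to 15.6 ± 0.0172 CPM (SD, n = 2; -0.87, adjusted p = 7.1e-05). Among the increases, Uqcrfs1 had 93.9 and 99.9 CPM in tcESCs and 138 and 134 in todPGCLCs (log2 fold change 0.49, SE 0.067, adjusted p = 0.000285), and Ndufa7 63.7 and 75.8 CPM in tcESCs and 101 and 93.8 in todPGCLCs (0.48, adjusted p = 0.00733), the latter lost when 1 library was left out. Atp5s was 1.24 above tcESCs (adjusted p = 0.000113) and Cox7b2 2.28 (adjusted p = 0.000401). On chromosome 6, which holds Ndufa4, Ndufa5 and Ndufb2, the other genes had a median of -0.29 in this comparison. On chromosome 11 that median was 0.52, where 2 of 4 members rose, and less that median the 4 stood at -0.62 to -0.16. With the median of its chromosome taken from each member, the median of the nuclear members was -0.17. The part of these chromosome-wide differences was not tested here.

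Set against SCLCs, todPGCLCs were higher in 42 members and lower in 13, where 34.8% of all genes were higher and 34.9% lower. Of these, 4 were higher and 2 lower by more than 2-fold, with 38.0% of all genes. The nuclear members had a median of 0.23, beside 0.012 over all genes, and both rose with scaling to library totals alone, to 0.36 and 0.15. Complex V had 10 of 17 genes higher, complex I 20 of 37 with 6 lower, and complex IV 5 higher and 5 lower of 15. Atp5g1, 1 of the genes for the membrane ring of the synthase, had 87.3 and 109 CPM in tcESCs, 94.5 and 96.7 in tc;Sf1ESCs, 31.96 and 39.8 in SCLCs, and 91.4 and 91.1 in todPGCLCs (log2 fold change 1.34, SE 0.13, adjusted p = 1.86e-05). The SCLC libraries were alone in their low level. Uqcr10 (0.97, adjusted p = 5.59e-06), Ndufb4 (1.08, adjusted p = 0.00034) and Atp5o (1.004, adjusted p = 7.43e-06) were higher too. The other genes of the chromosomes of these 4 had medians of 0.53 (chromosome 11, Atp5g1 and Uqcr10) and 0.52 (chromosome 16, Ndufb4 and Atp5o), and less these medians Atp5g1 stood at 0.82, Uqcr10 at 0.45, Ndufb4 at 0.56 and Atp5o at 0.48. Cox7b2 was the highest of all (1.86, adjusted p = 0.000791). Ndufb2 (-1.304, adjusted p = 0.00065), Ndufa13 (-0.82, adjusted p = 9.72e-06), Cox7a2l (-0.73, adjusted p = 5.92e-05), Cox6b1 (-0.69, adjusted p = 0.00021) and Sdhd (-0.64, adjusted p = 3.45e-05) were lower in todPGCLCs. On chromosome 8, which holds Ndufa13, the other genes had a median of -0.55, and less that median Ndufa13 stood at -0.28. The part of these chromosome-wide differences was not tested. Of the 55 calls 44 were kept with any 1 library left out.

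**Figure D4:**
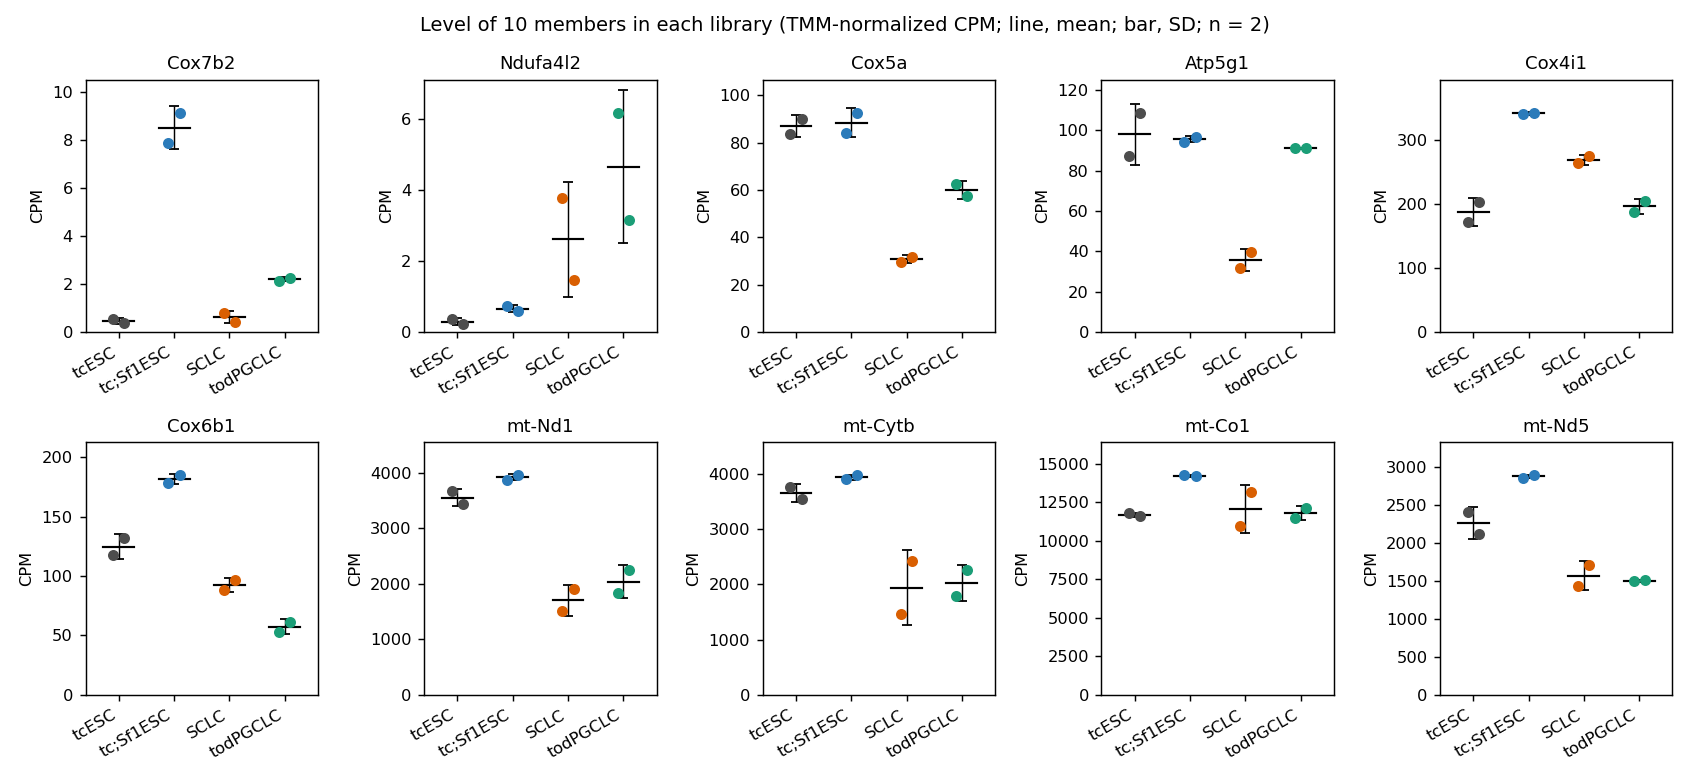
Level (CPM, TMM-normalised) of 10 members in each library; points are libraries, lines means and bars the SD of 2 libraries. Cox7b2 stands out in tc;Sf1ESCs, Cox5a and Atp5g1 are lowest in SCLCs, Cox6b1 is lowest in todPGCLCs, mt-Nd1 and mt-Cytb are lower in SCLCs and todPGCLCs than in both ESC lines, and mt-Co1 has means of 11689 CPM in tcESCs, 14218 in tc;Sf1ESCs, 12066 in SCLCs and 11816 in todPGCLCs.

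Several subunits are encoded by more than 1 gene, and the balance within these families is given per condition. Compared per length of exon, Cox7b2 stood at 1.08 ± 0.392% of the level of Cox7b in tcESCs, 17.0 ± 1.80% in tc;Sf1ESCs, 1.999 ± 0.764% in SCLCs and 6.24 ± 0.0139% in todPGCLCs (SD, n = 2). These ratios carry no test. Ndufa4l2, a paralogue of Ndufa4 known to be induced by hypoxia, had 0.355 and 0.227 CPM in tcESCs, 0.738 and 0.585 in tc;Sf1ESCs, 3.76 and 1.47 in SCLCs, and 6.18 and 3.15 in todPGCLCs. Its level was highest in todPGCLCs and SCLCs, whose libraries overlapped, and it was lowest in tcESCs (log2 fold change 4.01, SE 0.59, adjusted p = 0.000427 in todPGCLCs and 3.16, adjusted p = 0.00144 in SCLCs against tcESCs). The call in SCLCs against tc;Sf1ESCs was lost without the second tc;Sf1ESC library or the first SCLC library. Per length Ndufa4l2 stood at 5.33 ± 2.399% of Ndufa4 in todPGCLCs, with 7.02% in the higher library.

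The c ring of ATP synthase is built of 1 mature protein that is encoded by Atp5g1, Atp5g2 and Atp5g3. Atp5g3 supplied most of the mRNA, with 315 and 329.7 CPM in tcESCs, 376 and 382 in tc;Sf1ESCs, 181 and 219.6 in SCLCs, and 275 and 269 in todPGCLCs, and fell in SCLCs (log2 fold change -0.92, SE 0.090, adjusted p = 1.83e-05 against tc;Sf1ESCs). Per length, Atp5g1 stood at 13.5 ± 1.66%, 11.2 ± 0.0538%, 7.95 ± 0.141% and 14.9 ± 0.183% of Atp5g3 in tcESCs, tc;Sf1ESCs, SCLCs and todPGCLCs. Atp5g2 stood in SCLCs at 19.1 ± 3.53% against 9.88 ± 0.341% in tcESCs, but 38.3% of its 50-base stretches occur in other annotated genes. Per length, the Atp5g1 share lay below the Atp5g2 share in SCLCs, the reverse of their order in both ESC lines. This rests on the length used, that of all annotated exons (4912 bases for Atp5g1 and 1675 for Atp5g2). In counts, Atp5g1 stayed above Atp5g2 in SCLCs (815 and 1108 against 765 and 780), as in both ESC lines.

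In the complex IV families, Cox6b2, a testis isoform, stood per length at 30.9 ± 4.53% of Cox6b1 in tcESCs and 42.1 ± 3.46% in todPGCLCs, where Cox6b2 itself fell (-0.67, adjusted p = 0.000279) but Cox6b1 more. Cox4i2, an isoform best known from lung, had 0.513 and 0.325 CPM in tcESCs, 0.117 and 0.220 in tc;Sf1ESCs, 1.61 and 0.611 in SCLCs, and 0.311 and 0.357 in todPGCLCs. The first SCLC library was far above the second and without it the gene fell under the limit for testing. The call in SCLCs against tcESCs (1.404, adjusted p = 0.0361) was lost without any 1 of the ESC or todPGCLC libraries. Cox7a1 stood per length at 10.6 ± 2.20% of the ubiquitous Cox7a2 in tcESCs and at 13.8 ± 0.663%, 11.8 ± 1.80% and 10.2 ± 0.720% in tc;Sf1ESCs, SCLCs and todPGCLCs. Cox6a1 and Cox8a, the isoforms found in most tissues, fell in SCLCs against tc;Sf1ESCs (-0.74, adjusted p = 0.000131, and -0.39, adjusted p = 0.00167) and in todPGCLCs against tcESCs (-0.66, adjusted p = 0.000423, and -0.24, adjusted p = 0.0234), where the call of Cox8a was lost without the second tcESC library or the second todPGCLC library.

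The mitochondrially coded members are cut from long transcripts of the mitochondrial genome, and with 1 exception they carry poly-A tails. Of the 7 that were tested, all fell in SCLCs against tc;Sf1ESCs, 6 fell against tcESCs, and 6 fell in todPGCLCs against tcESCs, with medians of -0.87, -0.63 and -0.59. Without the first todPGCLC library 3 of the last 6 were called, and mt-Cytb (adjusted p = 0.0587), mt-Nd2 (0.0663) and mt-Nd4 (0.129) were not, the last of which was also lost without the first tcESC library. Between todPGCLCs and SCLCs edgeR called 0 of 7, 0 with an unadjusted p under 0.05, and DESeq2 called 0 (2 were higher in todPGCLCs with scaling to library totals alone). That comparison hung on the SCLC libraries, since 4 were lower in todPGCLCs without the first SCLC library and 4 higher without the second. mt-Nd1, a membrane subunit of complex I, had 3668 and 3444 CPM in tcESCs, 3881 and 3957 in tc;Sf1ESCs, 1504 and 1901 in SCLCs, and 1831 and 2247 in todPGCLCs (log2 fold change -1.20, SE 0.13, adjusted p = 3.13e-05 in SCLCs against tc;Sf1ESCs, and -0.80, adjusted p = 0.000604 in todPGCLCs against tcESCs). mt-Cytb, the cytochrome b of complex III, had 3769 and 3543 CPM in tcESCs, 3909 and 3979.6 in tc;Sf1ESCs, 1458 and 2418 in SCLCs, and 1797 and 2261 in todPGCLCs (-1.02, adjusted p = 0.00168, and -0.85, adjusted p = 0.00616). For both genes the ESC libraries lay above all SCLC and todPGCLC libraries, and the second SCLC library was above the first.

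mt-Co1, the catalytic subunit of complex IV, did not follow the others. It had 11788 and 11591 CPM in tcESCs, 14255 and 14180 in tc;Sf1ESCs, 10968 and 13164 in SCLCs, and 11483 and 12149 in todPGCLCs, was 0.046 against tcESCs in SCLCs (adjusted p = 0.673, but called as higher without the first SCLC library) and 0.016 in todPGCLCs (adjusted p = 0.897). Its fall against tc;Sf1ESCs (-0.24, adjusted p = 0.0445) was not kept as a call in 7 of the 8 fits with 1 library left out, with fold changes of -0.10 without the first SCLC library and -0.24 to -0.25 in the other 6. The ratio of mt-Co1 to mt-Nd1 counts was 3.29 ± 0.107 in tcESCs, 3.63 ± 0.0634 in tc;Sf1ESCs, 7.11 ± 0.258 in SCLCs and 5.84 ± 0.613 in todPGCLCs (SD, n = 2), without overlap between any of the groups and with no test. The ratio of mt-Co1 to mt-Cytb was 3.20 ± 0.101, 3.61 ± 0.0592, 6.48 ± 1.47 and 5.88 ± 0.719 in the same order, and there the SCLC and todPGCLC libraries overlapped. The measure is uncertain in 1 respect, since 51.1% of the 50-base stretches of mt-Co1 and none of those of mt-Nd1 occur in another annotated gene. mt-Nd6, the member transcribed from the opposite strand and the one without a poly-A tail, had 403 and 333 CPM in tcESCs, 452 and 478 in tc;Sf1ESCs, 213 and 262 in SCLCs, and 210.2 and 226 in todPGCLCs, and fell by 0.97 in SCLCs against tc;Sf1ESCs (adjusted p = 7.38e-05). mt-Nd5, on the other strand, stood at -0.87 (adjusted p = 3.95e-05), and mt-Nd2 and mt-Nd4 at -0.76 and -0.84 (adjusted p = 4.05e-05 and 0.00175). Of these, mt-Nd4 shares 62.2% of its 50-base stretches with another annotated gene, mt-Nd2 8.19% and mt-Nd5 7.61%.

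The other 6 mitochondrial members, mt-Co2, mt-Atp8, mt-Atp6, mt-Co3, mt-Nd3 and mt-Nd4l, lie side by side between mt-Co1 and mt-Nd4 and had at most 12 counts in any library, so that little can be said of their expression. The annotation places near-identical pseudogenes of this stretch at chr1:24611535-24616197 (GRCm38). Over 50 bases, the length of a read, mt-Co2 shares 100% of its stretches with Gm28661, mt-Atp6 99.5% with Gm10925, mt-Co3 99.9% with Gm28437, mt-Nd4l 98.8% with Gm10222 and mt-Nd3 98.0% with Gm28438. No annotated gene covers the copy's counterpart of mt-Atp8, for which the measure gives 0%. Reads with more than 1 best place were set aside by the authors' counting, at 20.5% to 27.5% of the records in the count files.

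mt-Nd3, a small membrane subunit of complex I, is the one of these 6 genes with counts in most libraries. Over 345 aligned bases mt-Nd3 and Gm28438 differ at 1, T3C, counted from 1 at the first base of the mitochondrial gene. The first bases of both are given with that position in capitals, as the only aligned position at which the annotated sequences differ (GRCm38, mt-Nd3 on the plus strand at chrM:9459-9481, Gm28438 on the minus strand at chr1:24613097-24613119).
mt-Nd3: atTaacctgtacactgttatctt
Gm28438: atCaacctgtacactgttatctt
Gm28438 had 12 and 18 counts in tcESCs, 16 and 14 in tc;Sf1ESCs, 5 and 3 in SCLCs, and 205 and 233 in todPGCLCs, whereas mt-Nd3 had 8 and 8, 12 and 7, 3 and 5, and 0 and 0 in the same order. The todPGCLC libraries stood apart from all others in the copy, whereas the mt-Nd3 counts were near the floor of 3 counts in SCLCs and todPGCLCs and give no contrast between them. Gm28438 was higher in todPGCLCs than in tcESCs (log2 fold change 3.84, SE 0.27, adjusted p = 6.82e-06). The counts do not say which of these near-identical places was transcribed, and the cell type cannot be told apart from the ESC line.

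**Figure D5:**
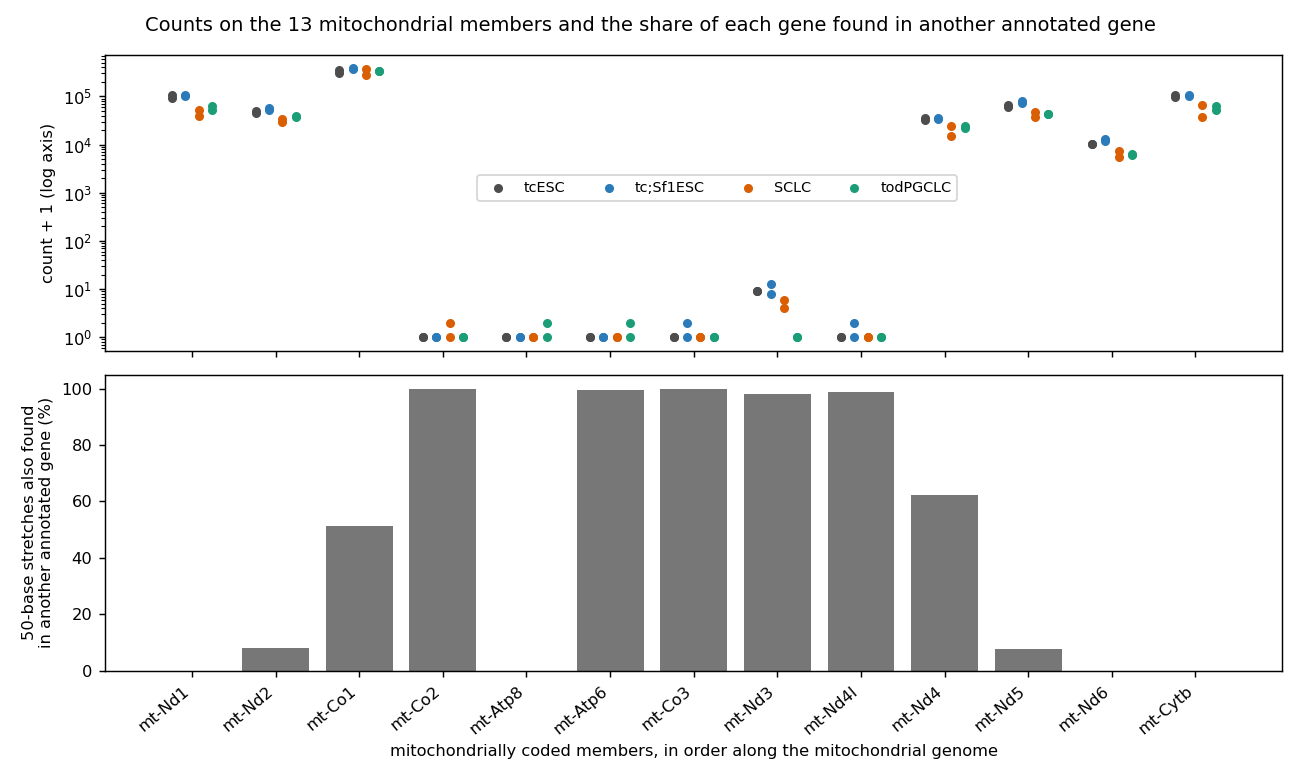
Counts of the 13 mitochondrially coded members in each library on a log axis (count + 1, upper panel; points are libraries) and the percentage of each gene's 50-base stretches that occur in another annotated gene (lower panel), in order along the mitochondrial genome. The 6 genes from mt-Co2 to mt-Nd4l lie at 12 counts or fewer, and all of these except mt-Atp8 share 98.0% or more of their stretches.

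Promoter sequence was searched for the nuclear members, whether or not their levels changed. Windows of 300 bases, from 250 before to 50 after the start of transcription, were taken from RefSeq (GRCm38.p6) for 68 of the 84 nuclear members, and exact matches on either strand were counted for 4 short motifs. GCGCATGC, the core of the nuclear respiratory factor NRF1 which overlaps its own reverse complement, was found in 10 of the 68 (14.7%), beside 3.6% of all 17491 promoters. AAGATGGC, a YY1 site, was found in 9 (13.2%), beside 3.22%, and CCGGAAGT, an ETS site of the kind bound by GABP, in 5 (7.35%), beside 5.29%. CAAGGTCA, a site of the kind bound by SF1 and by the oestrogen-related receptors, was found in 4 (5.88%), beside 1.34%. A match is a description of the letters only, and not a site shown to be bound.

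Of the 10 members with the NRF1 core, 6 fell and 2 rose in SCLCs against tc;Sf1ESCs, with a median of -0.74, and of the 9 with the YY1 site 7 fell, with a median of -0.55. Of the 5 with the ETS site 4 fell, with a median of -0.39, and of the 4 with the SF1 site 2 fell, with a median of -0.44. Beside these, of all 81 nuclear members tested 60 (74.1%) fell and 7 (8.64%) rose, with a median of -0.56. Over all genes tested, 35.3% fell and 37.6% rose. The windows of 4 members are given 5′ to 3′ on the strand of the gene, with motif letters in capitals. Uqcr11 (chr10:80406772-80407071, minus strand) holds the ETS site and the NRF1 core as its reverse complement, and Ndufa11 (chr17:56717512-56717811, plus strand) the NRF1 core on both strands. Atp5g3 (chr2:73911277-73911576, minus strand) holds the SF1 site as its reverse complement, and Cox7b2 (chr5:71548156-71548455, minus strand), the member that changed most in the Sf1 clone, holds none of the 4.
Uqcr11: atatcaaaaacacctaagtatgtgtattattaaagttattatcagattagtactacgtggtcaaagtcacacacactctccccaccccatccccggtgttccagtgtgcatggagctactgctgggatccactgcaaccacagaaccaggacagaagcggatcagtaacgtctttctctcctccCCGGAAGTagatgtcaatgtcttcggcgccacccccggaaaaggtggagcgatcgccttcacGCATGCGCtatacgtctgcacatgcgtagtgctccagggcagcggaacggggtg
Ndufa11: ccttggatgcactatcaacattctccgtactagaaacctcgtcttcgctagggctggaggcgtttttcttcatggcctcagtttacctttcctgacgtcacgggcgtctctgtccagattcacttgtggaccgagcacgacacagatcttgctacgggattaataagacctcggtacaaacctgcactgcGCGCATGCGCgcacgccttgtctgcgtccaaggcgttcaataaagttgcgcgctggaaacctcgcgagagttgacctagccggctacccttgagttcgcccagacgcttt
Atp5g3: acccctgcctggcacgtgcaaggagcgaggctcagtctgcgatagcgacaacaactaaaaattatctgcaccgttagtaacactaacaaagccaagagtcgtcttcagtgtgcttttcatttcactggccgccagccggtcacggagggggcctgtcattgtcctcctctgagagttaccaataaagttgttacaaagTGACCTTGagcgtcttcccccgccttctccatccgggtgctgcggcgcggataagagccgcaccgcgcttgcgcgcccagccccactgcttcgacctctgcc
Cox7b2: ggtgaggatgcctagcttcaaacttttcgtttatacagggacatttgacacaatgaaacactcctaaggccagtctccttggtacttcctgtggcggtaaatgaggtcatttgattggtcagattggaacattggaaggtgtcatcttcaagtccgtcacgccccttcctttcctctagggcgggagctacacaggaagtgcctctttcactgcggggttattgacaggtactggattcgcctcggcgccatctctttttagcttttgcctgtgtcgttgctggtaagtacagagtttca
Uqcr11 stood at -0.96 in SCLCs against tc;Sf1ESCs (adjusted p = 3.61e-05), and Ndufa11 at -0.79 (adjusted p = 7.64e-05). The 4 members with the SF1 site, Atp5g3, Atp5l, Ndufs5 and Sdhd, had log2 fold changes of 0.039 to 0.23 in tc;Sf1ESCs against tcESCs, of which 0 passed edgeR's adjusted test, 1 had an unadjusted p under 0.05 and DESeq2 called 0.

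Other genes of the pathway were described from lists. Of 77 genes tested for mitochondrial ribosomal proteins, which translate the mitochondrial members, 55 fell and 7 rose in SCLCs against tc;Sf1ESCs (median -0.58), 52 fell and 7 rose against tcESCs, and 47 were higher and 4 lower in todPGCLCs than in SCLCs. In tc;Sf1ESCs against tcESCs 10 fell and 6 rose, beside 16.3% and 16.9% of all genes. In todPGCLCs against tcESCs 28 fell and 20 rose, beside 29.2% and 32.8% of all genes. Over all genes, 35.3% fell and 37.6% rose in SCLCs against tc;Sf1ESCs, and 34.7% and 38.1% against tcESCs. Between todPGCLCs and SCLCs 34.8% of all genes were higher and 34.9% lower. The extremes in SCLCs against tcESCs were Mrpl39 (-1.65, adjusted p = 2.68e-07, on chromosome 16 with its median of -0.48) and Mrpl23 (2.20, adjusted p = 1.09e-06), and against tc;Sf1ESCs Mrps5 (-1.5, adjusted p = 1.21e-06) and Mrpl23 (1.98, adjusted p = 1.91e-06).

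Of 17 complex I assembly factors, 11 fell and 2 rose in SCLCs against tc;Sf1ESCs, with Ndufaf4 at -1.78, adjusted p = 6.15e-07. Over all genes tested, 35.3% fell and 37.6% rose in this comparison. The 19 assembly factors of complex IV were split, with 7 lower and 5 higher, from Cox17, a copper chaperone, at -0.95, adjusted p = 0.0215, to Cmc1 at 1.86, adjusted p = 7.09e-06. Of 11 for complexes II and III 2 fell and 1 rose, and of 4 for complex V 2 fell and 1 rose, the latter Tmem70 (0.89, adjusted p = 0.000155). Among 17 genes of mitochondrial DNA maintenance and transcription 10 fell and 5 rose, from Twnk, the helicase (-1.14, adjusted p = 1.97e-06), to Polg, the polymerase (1.48, adjusted p = 7.5e-07), and in todPGCLCs Tefm, the transcription elongation factor, was highest against both tcESCs and SCLCs (1.58 and 1.95, adjusted p = 1.27e-05 and 2.34e-06, on chromosome 11 with medians of 0.52 and 0.53). Of 21 genes of the tricarboxylic acid cycle and pyruvate dehydrogenase, 10 fell and 5 rose. The highest of them was Pdk2, a kinase that inhibits pyruvate dehydrogenase, in SCLCs (3.57, adjusted p = 4.5e-07) and Pdk4, another such kinase, in todPGCLCs against tcESCs (3.50, adjusted p = 0.000207).

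Cytochrome c itself was 1 of 5 core genes outside the rule, of which 3 fell and 1 rose in SCLCs against tc;Sf1ESCs. Cycs, the somatic gene, had means of 37.5, 35.3, 12.6 and 35.4 CPM in tcESCs, tc;Sf1ESCs, SCLCs and todPGCLCs (log2 fold change -1.48, SE 0.085, adjusted p = 6.95e-07 in SCLCs against tc;Sf1ESCs). Cyct, the testis gene, had 7.65, 1.57, 7.08 and 53.5 CPM, highest in todPGCLCs (log2 fold change 2.80, SE 0.34, adjusted p = 0.000141 against tcESCs) and lowest in tc;Sf1ESCs (-2.29, adjusted p = 0.00384 against tcESCs). The Cycs and Cyct genes thus ordered the conditions differently. Cyc1, cytochrome c1 of complex III, fell in SCLCs (-0.98, adjusted p = 2.04e-06 against tc;Sf1ESCs), and so did Ndufab1, the acyl carrier of complex I (-0.62, adjusted p = 0.000309).

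Of 12 regulators of mitochondrial biogenesis tested, 7 fell and 2 rose in SCLCs against tc;Sf1ESCs, and 6 fell and 2 rose against tcESCs. Esrrb, an oestrogen-related receptor and also 1 of the ESC markers, fell most, with means of 908, 808, 69.0 and 464 CPM in the 4 conditions (log2 fold change -3.55, SE 0.26, adjusted p = 2.87e-06). Esrra, its relative in most tissues, rose (1.23, adjusted p = 3.1e-05 against tc;Sf1ESCs). Nrf1 (-0.89, adjusted p = 5.72e-06), Gabpa (-0.75, adjusted p = 8.38e-06), the coactivator gene Ppargc1b (-0.96, adjusted p = 0.0238), Tfam, which packs and transcribes mitochondrial DNA (-0.57, adjusted p = 5.12e-05), and Lrpprc, which stabilises mitochondrial mRNA (-1.07, adjusted p = 1.24e-06), all fell in SCLCs. In todPGCLCs against tcESCs Tfam stood at 0.022 (adjusted p = 0.779), Nrf1 fell (-0.45, adjusted p = 0.000604, on chromosome 6, where the median of the other genes tested was -0.29) and Esrrb fell (-0.97, adjusted p = 0.006). Ppargc1a was under the limit on counts and was not tested. These lists were described by their counts alone, and the shares of all genes that rose or fell in each comparison were those given with the members.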

How the data were processed

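RNA-sequencing counts of 8 libraries in 4 groups were used. The authors made poly-A selected, strand-specific libraries with paired 50-base reads and, by the submitters' processing notes, used Trim Galore, STAR 2.4.0, Picard, HTSeq and DESeq2 with GRCm38. They deposited for each library raw counts per gene, without normalization. The release of the gene annotation is not given in the sources used here. Lines for reads in no single gene (no feature, ambiguous, not unique, not aligned), 35.6% to 41.6% of all records, were left out of totals and tests. Multiply aligned reads are therefore missing from genes with near-identical copies.

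Symbols and positions came from GENCODE M21. Fits were made with edgeR 4.0.16 (TMM factors, quasi-likelihood test), limma 3.58.1 and DESeq2 1.42.0 under R 4.3.3, in 1 fit of all 8 libraries by group, over 16707 genes whose count averaged more than 10, and the procedure was tested on simulated data. Totals were 25411033 to 30680191, where 3 counts, the floor of detection, were 0.0978 to 0.118 CPM (counting error only). Sharing was measured as the percentage of a gene's 50-base stretches found in annotated transcripts of another gene. The members and lists were chosen with earlier results of these data known. Genes named were the mitochondrial, Sdh and isoform-family members, the 5 highest and 5 lowest called nuclear members of each comparison with a mean of at least 1 CPM and no overlap, set regulators, and the extremes of each list; further members were named as examples of their complex after their values were seen. Alternatives were other scalings and gene filters, DESeq2, fewer libraries, a replicate block and each library left out. Other cells of the study were not analysed here, and 1 member was withheld by name. Other members that are not named enter only the counts, sums, medians and figures.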

Additional observations from a re-analysis of the deposited data

How the results depend on the processing

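No called value among the medians, shares, counts and named genes compared changed sign under the alternatives. The mitochondrial members, not called by edgeR in todPGCLCs against SCLCs with all libraries, gave 4 lower without the first SCLC library and 4 higher without the second. Calls above 2-fold in tc;Sf1ESCs against tcESCs went from 1 to 2 with every gene of at least 1 count and with the 4 libraries compared alone. Scaling to library totals moved the median of the nuclear members from -0.562 to -0.607 in SCLCs against tc;Sf1ESCs, from -0.115 to -0.043 in todPGCLCs against tcESCs and from 0.230 to 0.363 in todPGCLCs against SCLCs, and the filterByExpr filter moved the first to -0.607. As a percentage of protein-coding counts, mitochondrial members took 2.90 in tc;Sf1ESCs, and without mitochondrial counts in the total, nuclear members took 1.16, 0.736 and 1.02 in tc;Sf1ESCs, SCLCs and todPGCLCs. With each library left out, medians ran from -0.606 to -0.535 (SCLCs against tc;Sf1ESCs), -0.479 to -0.367 (SCLCs against tcESCs), 0.089 to 0.169 (tc;Sf1ESCs against tcESCs), -0.201 to -0.098 (todPGCLCs against tcESCs) and 0.221 to 0.267 (todPGCLCs against SCLCs).

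Members past the adjusted p in tc;Sf1ESCs against tcESCs numbered 61 with the 4 libraries compared alone, in place of 32. The cause was not tested. With the replicate number as a block they numbered 29, no count of any comparison moved by over 1.5 times, and since same-numbered libraries deviated together with correlations of only -0.026 to 0.062, the numbers were not taken as pairs. Without 1 library of either group they numbered 7 to 10, and in todPGCLCs against tcESCs 31 without the first todPGCLC library in place of 48. Calls above 2-fold ran from 11 to 19 (SCLCs against tc;Sf1ESCs), 8 to 15 (SCLCs against tcESCs), 5 to 6 (todPGCLCs against tcESCs) and 4 to 8 (todPGCLCs against SCLCs) with each library left out. DESeq2 called 27 members in tc;Sf1ESCs against tcESCs and 45 in todPGCLCs against tcESCs. Without the first SCLC library Cox4i2 could not be tested. At this depth Cox6a2, Cox8b and Cox8c, with 10 counts or fewer in every library, could not be tested, and what limits the counts of the 6 mitochondrial members left out was not tested.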
